A study of Saccharomyces cerevisiae with 4 samples.

Results

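Fatty acid synthesis and activation in budding yeast was followed through 7 genes, FAS2, ACC1, OLE1, ACS2, ELO1, FAA1 and FAA4, out of 5684 coding genes on the chromosomes used. The genes were chosen by their upstream tags and positions in these same libraries, above all those of FAS2, and genes of chromosome XI were not included. The values were tags and distinct positions (a base and strand counted once, however many tags it holds) within 800 bp before the start codon and inside the coding region, by strand, in 4 ChIP-exo libraries. ChIP-exo is chromatin immunoprecipitation in which an exonuclease trims the crosslinked DNA back towards the bound protein before sequencing. The 3 tagged Saccharomyces cerevisiae strains had the genotypes XRN1-TAP, DCP2-TAP and LSM1-TAP, and the No-TAP strain carried no tag. All had the background strain yMC458 and were grown in YPD, a rich glucose medium, with no other treatment. Xrn1 digests mRNA from its decapped end, Dcp2 removes the cap, and Lsm1 belongs to a ring-shaped complex that helps decapping along. All 4 strains went through the same IgG pull-down. Each is represented by 1 library, so no test between strains was possible and no replicate error is known.

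Fatty acids are built in the yeast cytoplasm from acetyl-CoA. Acs2 makes acetyl-CoA from acetate, Acc1 carboxylates it to malonyl-CoA in the committed step, and the fatty acid synthase, of which Fas2 is one of the subunits, joins these units into saturated chains. Ole1 then places a double bond in the chain, Elo1 lengthens medium-length chains, and Faa1 and Faa4 activate long-chain fatty acids, including those taken up from the medium, by joining them to coenzyme A. Several of these genes are known targets of the activators Ino2 and Ino4, which respond to inositol, or are repressed when fatty acids are supplied.

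The Xrn1-TAP library held 158105 tags at 18481 positions, Dcp2-TAP 357674 at 44955, Lsm1-TAP 211236 at 25342 and No-TAP 33412 at 4743. Tags at the same position can be PCR copies or separate fragments trimmed to the same base, which the counts cannot tell apart. Positions are given first and tags beside them. Intervals are exact 95% intervals and cover counting error only. For tags they treat each tag as independent, which PCR copies are not, so the tag intervals are likely too narrow. The mean coding gene had 1.74 upstream positions for Xrn1-TAP, 4.40 for Dcp2-TAP, 2.21 for Lsm1-TAP and 0.447 in No-TAP, where 68.5% of coding genes had none. The gene positions come from the R64 assembly, which the sources used here do not name as the build of the files. When the gene table was moved along the chromosomes, the best match to positions before start codons lay at a lag of at most 10 bp on each of the 7 chromosomes that hold these genes, and at -370 bp on chromosome XI. Distances to start codons are therefore approximate.

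The 7 genes ranged from among the densest upstream regions of the genome to below the average gene. Counted together, their upstream windows held 48 positions for Xrn1-TAP, 73 for Dcp2-TAP, 54 for Lsm1-TAP and 13 in No-TAP. That is 3.93 (2.90 to 5.21) times the mean gene for Xrn1-TAP, 2.37 (1.86 to 2.98) for Dcp2-TAP, 3.49 (2.62 to 4.55) for Lsm1-TAP and 4.16 (2.21 to 7.11) for No-TAP. FAS2 alone gave between 31.2% (Xrn1-TAP) and 46.2% (No-TAP) of these positions. The median gene of the 7 had 6 positions for Xrn1-TAP, 8 for Dcp2-TAP, 6 for Lsm1-TAP and 0 in No-TAP, while the medians over all coding genes were 1 for Xrn1-TAP, 3 for Dcp2-TAP, 2 for Lsm1-TAP and 0 in No-TAP. At least 2 times the mean was reached by 6 of 7 genes for Xrn1-TAP (background 13.3% of all coding genes), 3 for Dcp2-TAP (background 11.5%), 4 for Lsm1-TAP (background 11.6%) and 3 for No-TAP (background 31.5%, where 1 position suffices). These counts describe genes that were proposed from the same upstream signal and lend it no independent support. FAS2 and FAA1 passed in all 4 libraries, ACC1 in the 3 tagged ones, ELO1 in Xrn1-TAP and Lsm1-TAP, OLE1 and FAA4 in Xrn1-TAP, and ACS2 in No-TAP.

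**Figure D1:**
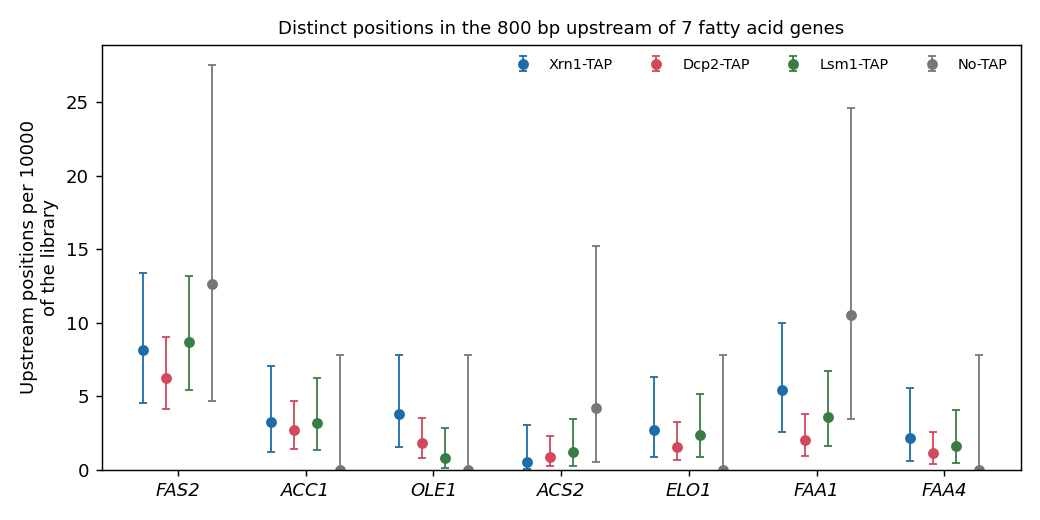
Distinct positions in the 800 bp before each start codon, per 10000 positions of the library (y axis), with exact 95% Poisson intervals as bars, for the 3 tagged libraries and No-TAP (grey). FAS2 has the highest share of positions in each library, from 6.23 in Dcp2-TAP to 12.7 in No-TAP, and 4 genes sit at 0 in No-TAP with an interval that reaches above the tagged values.

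FAS2, whose product carries the acyl carrier and the condensing enzyme of the synthase, had the most positions of the 7 in every library, while by tags FAA1 was higher in Xrn1-TAP and No-TAP. Its upstream window held 15 positions with 156 tags in Xrn1-TAP, 28 with 505 in Dcp2-TAP, 22 with 327 in Lsm1-TAP and 6 with 28 in No-TAP. These counts are 8.60 (4.81 to 14.2) times the mean gene for Xrn1-TAP, 6.37 (4.23 to 9.21) for Dcp2-TAP, 9.95 (6.24 to 15.1) for Lsm1-TAP and 13.4 (4.93 to 29.2) for No-TAP. Including FAS2, as many positions were found at 16 of the 5684 coding genes for Xrn1-TAP, 43 for Dcp2-TAP, 12 for Lsm1-TAP and 16 in No-TAP. The signal was compact. Its densest 100 bp had 8 of 15 positions for Xrn1-TAP, 20 of 28 for Dcp2-TAP, 11 of 22 for Lsm1-TAP and 4 of 6 for No-TAP, while the median coding gene had at most 2 positions in its densest 100 bp in any library.

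A single base, 247 bp before the FAS2 start codon on the strand of the gene, was occupied in all 4 libraries. It held 57 tags for Xrn1-TAP, 74 for Dcp2-TAP, 130 for Lsm1-TAP and 10 in No-TAP. It was the fullest of all 25342 positions of Lsm1-TAP, and only 7 positions of Xrn1-TAP and 6 of Dcp2-TAP, this one included, held as many tags. In No-TAP the fullest position of the window lay 290 bp upstream with 14 tags. Across the genome, 22 positions were shared by all 4 libraries. On the gene strand Dcp2-TAP had further tags next to this base, with 46 at 249 bp, 14 at 248 bp and 32 at 245 bp upstream.

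On the opposite strand the FAS2 positions lay nearer to the gene. Their median was 178 bp upstream for Xrn1-TAP, 216 bp for Dcp2-TAP, 165 bp for Lsm1-TAP and 159 bp for No-TAP. The gene-strand medians were 300.5 bp for Xrn1-TAP, 280 bp for Dcp2-TAP, 325 bp for Lsm1-TAP and 288 bp for No-TAP. In all 4 libraries, the untagged one included, the opposite-strand median was thus the nearer one. For No-TAP this rests on 3 positions on each strand. What gave this order was not tested. The fullest opposite-strand position held 22 tags at 171 bp for Xrn1-TAP, 41 tags at 192 bp for Dcp2-TAP and 43 tags at 165 bp for Lsm1-TAP. In No-TAP the 3 opposite-strand positions, at 230, 159 and 149 bp, held 1 tag each. The upstream neighbour SSO1, a plasma membrane syntaxin transcribed in the same direction, ends 504 bp before FAS2, and only 2 positions of Dcp2-TAP and 1 of Lsm1-TAP fell inside it.

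**Figure D2:**
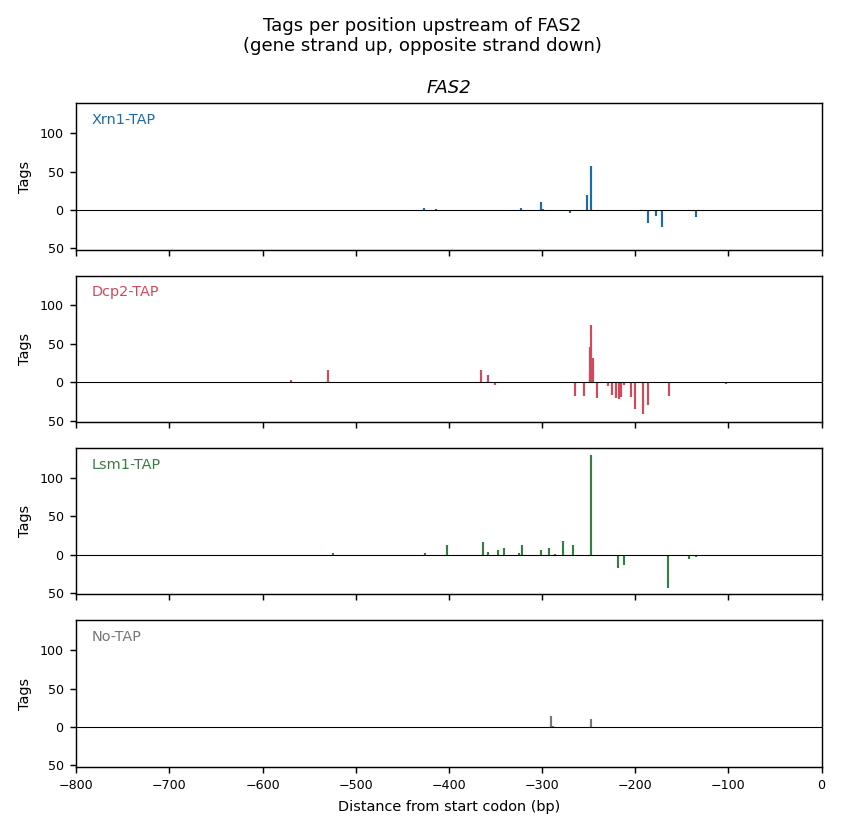
Tags at each position (y axis, gene strand upward and opposite strand downward) against distance from the FAS2 start codon in bp, with 1 panel per library and No-TAP at the bottom. The gene-strand line 247 bp upstream recurs in every panel, with 57, 74 and 130 tags in the tagged libraries from the top and 10 tags in No-TAP, and most opposite-strand tags lie to its right.

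The substrate-supplying enzymes ACC1 and ACS2 had unlike values. ACC1, the acetyl-CoA carboxylase, had 6 positions with 77 tags in Xrn1-TAP, 12 with 144 in Dcp2-TAP, 8 with 65 in Lsm1-TAP and 0 in No-TAP. These are 3.44 (1.26 to 7.49) times the mean gene for Xrn1-TAP, 2.73 (1.41 to 4.77) for Dcp2-TAP and 3.62 (1.56 to 7.13) for Lsm1-TAP. The ACC1 signal lay far from the start codon, with a median of 703 bp for Xrn1-TAP, 637 bp for Dcp2-TAP and 662 bp for Lsm1-TAP. Within 300 bp there was no position of Xrn1-TAP, 1 of Dcp2-TAP (at 68 bp) and 1 of Lsm1-TAP (at 219 bp). A gene-strand position 721 bp upstream was occupied in all 3 tagged libraries, with 4 tags for Xrn1-TAP, 15 for Dcp2-TAP and 1 for Lsm1-TAP. Another at 739 bp held 27 tags of Dcp2-TAP and 20 of Lsm1-TAP. The divergent neighbour TIM23, a subunit of the mitochondrial import channel, starts 1538 bp away, and 1 position of ACC1, in Lsm1-TAP, was nearer to it than to ACC1. The window of 800 bp ends little past the middle of that gap, so few positions could be nearer to TIM23. Positions beyond the window were not counted, so the signal is not assigned to either gene.

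ACS2, the acetyl-CoA synthetase used on glucose, was the sparsest of the 7 in Xrn1-TAP and Dcp2-TAP. It had 1 position with 6 tags in Xrn1-TAP, 4 with 13 in Dcp2-TAP, 3 with 13 in Lsm1-TAP and 2 with 14 in No-TAP. These are 0.573 (0.0145 to 3.19) times the mean gene for Xrn1-TAP, 0.910 (0.248 to 2.33) for Dcp2-TAP, 1.36 (0.280 to 3.97) for Lsm1-TAP and 4.48 (0.542 to 16.2) for No-TAP, each interval holding 1. No position of ACS2 was shared between libraries. Its window reaches 394 bp into RNH203, a subunit of ribonuclease H, which holds 1 of the positions of Lsm1-TAP.

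Of the chain-modifying enzymes, OLE1, the fatty acid desaturase, had its highest counts in Xrn1-TAP and Dcp2-TAP. It had 7 positions with 99 tags in Xrn1-TAP, 8 with 117 in Dcp2-TAP, 2 with 4 in Lsm1-TAP and 0 in No-TAP. These are 4.01 (1.61 to 8.27) times the mean gene for Xrn1-TAP, 1.82 (0.786 to 3.59) for Dcp2-TAP and 0.905 (0.110 to 3.27) for Lsm1-TAP. The OLE1 positions of Xrn1-TAP lay between 61 and 740 bp upstream with a median of 670 bp, and those of Dcp2-TAP between 84 and 635 bp with a median of 410.5 bp. Of the positions of Xrn1-TAP, 5 of 7 were nearer to the divergent gene SDS23 than to OLE1, and of those of Dcp2-TAP 1 of 8. No base was occupied in more than 1 library. The fullest position of Xrn1-TAP held 27 tags at 543 bp and that of Dcp2-TAP 37 tags at 394 bp, both on the opposite strand.

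ELO1, the elongase of medium-length chains, had 5 positions with 25 tags in Xrn1-TAP, 7 with 46 in Dcp2-TAP, 6 with 84 in Lsm1-TAP and 0 in No-TAP. These are 2.87 (0.931 to 6.69) times the mean gene for Xrn1-TAP, 1.59 (0.640 to 3.28) for Dcp2-TAP and 2.71 (0.996 to 5.91) for Lsm1-TAP, each interval holding 1. Its window reaches the divergent gene CDC6, a replication licensing factor that starts 555 bp away. Nearer to CDC6 than to ELO1 were 1 of the 5 positions of Xrn1-TAP, 6 of the 7 of Dcp2-TAP and 3 of the 6 of Lsm1-TAP, so these values describe a region shared by both genes. The opposite-strand position 504 bp upstream was shared by Dcp2-TAP with 21 tags and Lsm1-TAP with 7. The fullest position of Lsm1-TAP held 43 tags at 534 bp, a number reached by 93 positions of that library. In Xrn1-TAP the fullest position lay 45 bp upstream of ELO1 and held 12 tags.

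Of the acyl-CoA synthetases, FAA1 passed 2 times the mean gene in all 4 libraries and FAA4 was within counting error of the mean gene in each. FAA1, which activates most imported long-chain fatty acids, had 10 positions with 174 tags in Xrn1-TAP, 9 with 130 in Dcp2-TAP, 9 with 104 in Lsm1-TAP and 5 with 66 in No-TAP. These are 5.73 (2.75 to 10.5) times the mean gene for Xrn1-TAP, 2.05 (0.936 to 3.89) for Dcp2-TAP, 4.07 (1.86 to 7.73) for Lsm1-TAP and 11.2 (3.63 to 26.1) for No-TAP. In No-TAP only 35 coding genes, FAA1 included, had as many positions. The median FAA1 position lay 388.5 bp upstream for Xrn1-TAP, 402 bp for Dcp2-TAP, 431 bp for Lsm1-TAP and 498 bp for No-TAP. Its fullest position in Xrn1-TAP, 461 bp upstream, held 53 tags and recurred in Lsm1-TAP with 8. The fullest of No-TAP, 453 bp upstream, held 42 tags and recurred in Xrn1-TAP with 1. Other bases were shared at 577 bp (5 tags of Xrn1-TAP, 10 of No-TAP), 381 bp (15 of Xrn1-TAP, 31 of Dcp2-TAP) and 378 bp (14 of Dcp2-TAP, 9 of No-TAP).

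FAA4, which overlaps FAA1 in activity, had 4 positions with 16 tags in Xrn1-TAP, 5 with 77 in Dcp2-TAP, 4 with 30 in Lsm1-TAP and 0 in No-TAP. These are 2.29 (0.625 to 5.87) times the mean gene for Xrn1-TAP, 1.14 (0.369 to 2.65) for Dcp2-TAP and 1.81 (0.493 to 4.63) for Lsm1-TAP, and every interval holds 1. No base upstream of FAA4 was occupied in more than 1 library. Its fullest position held 11 tags at 576 bp for Xrn1-TAP, 30 tags at 240 bp for Dcp2-TAP and 16 tags at 673 bp for Lsm1-TAP.

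**Figure D3:**
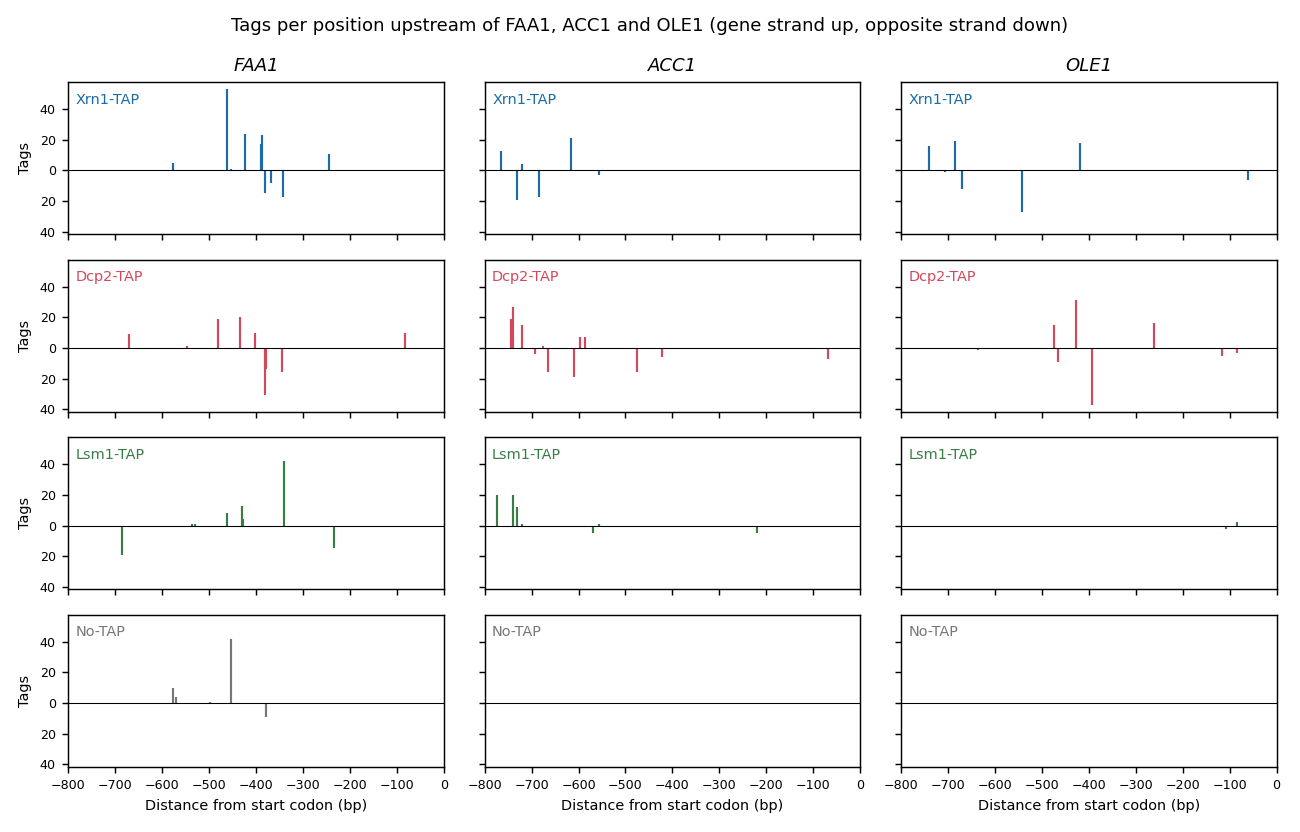
Tags at each position (y axis, gene strand upward and opposite strand downward) against distance in bp from the start codons of FAA1, ACC1 and OLE1 (columns), with 1 library per row and No-TAP at the bottom. FAA1 shows tags between 300 and 800 bp upstream in all 4 rows, ACC1 has most tags beyond 500 bp in the tagged rows, and OLE1 has 2 positions with 4 tags in Lsm1-TAP and none in No-TAP.

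Summed over the genes other than FAS2, the share of positions close to the start codon was below that over all coding genes in Xrn1-TAP and Dcp2-TAP. Without FAS2, the nearest 300 bp held 24.2% (11.1% to 42.3%) of the upstream positions for Xrn1-TAP, 22.2% (11.2% to 37.1%) for Dcp2-TAP, 31.2% (16.1% to 50.0%) for Lsm1-TAP and 28.6% (3.67% to 71.0%) for No-TAP. Over all coding genes the share was 49.6% for Xrn1-TAP and 51.3% for Dcp2-TAP, above those intervals, and 48.5% for Lsm1-TAP and 51.1% in No-TAP, inside them. The intervals treat positions as independent, although they cluster within a gene. The genes were not alike in this. ACC1 and FAA1 had at most 1 position each within 300 bp in any library. ACS2 had 1 of 1 there for Xrn1-TAP, 3 of 4 for Dcp2-TAP, 1 of 3 for Lsm1-TAP and 2 of 2 in No-TAP, and ELO1 had 4 of 5 for Xrn1-TAP. With FAS2 the shares were 39.6% (25.8% to 54.7%) for Xrn1-TAP, 43.8% (32.2% to 55.9%) for Dcp2-TAP, 40.7% (27.6% to 55.0%) for Lsm1-TAP and 61.5% (31.6% to 86.1%) in No-TAP. Each of these intervals holds the share over all coding genes. The shares of the tagged libraries were still the lower ones, but beyond counting error only without FAS2, in Xrn1-TAP and Dcp2-TAP. Leaving FAS2 out was a choice made after seeing the data. The distance to the upstream neighbour was 1538 bp at ACC1, 1407 bp at FAA1, 1009 bp at OLE1 and 975 bp at FAA4, so these 4 windows held no other annotated gene. The gap was 555 bp at ELO1, 504 bp at FAS2 and 406 bp at ACS2.

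**Figure D4:**
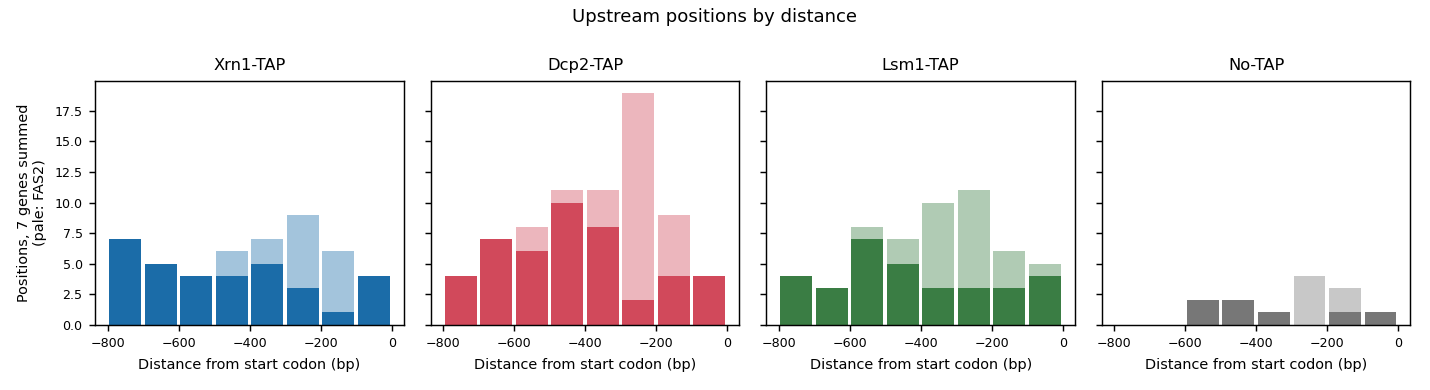
Number of distinct positions in 100 bp bins of distance from the start codon (x axis, bp), summed over the 7 genes, with FAS2 in the pale part of each bar and 1 panel per library, No-TAP at the right. In the Dcp2-TAP panel the bin 201 to 300 bp upstream holds 19 positions, of which 2 are outside FAS2, and in the No-TAP panel it holds 4, all at FAS2.

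Pairs of positions on both strands were counted for the order seen at FAS2. Within 100 bp, an opposite-strand position lay downstream of a gene-strand one in 38 pairs for Xrn1-TAP, 117 for Dcp2-TAP, 22 for Lsm1-TAP and 6 in No-TAP. The reverse order was seen in 7 pairs for Xrn1-TAP, 21 for Dcp2-TAP, 6 for Lsm1-TAP and 0 in No-TAP. FAS2 gave 17 of the first kind for Xrn1-TAP, 90 for Dcp2-TAP, 21 for Lsm1-TAP and 5 in No-TAP, which is most of them outside Xrn1-TAP. Without FAS2 there were 21 pairs in the first order and 5 in the reverse for Xrn1-TAP, 27 and 9 for Dcp2-TAP, 1 and 6 for Lsm1-TAP, and 1 and 0 for No-TAP. Outside FAS2 the reverse order was thus the more frequent one in Lsm1-TAP, and FAA1 gave 13 of the 21 in Xrn1-TAP. Over the genome without chromosome XI the first order was 1.27 times as frequent as the second for Xrn1-TAP, 1.24 for Dcp2-TAP, 1.25 for Lsm1-TAP and 1.54 in No-TAP. One position can enter many pairs, and the pairs are not independent.

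Some bases were occupied in more than 1 library. Of 169 distinct positions in the 7 windows, 16 were seen in 2 or more libraries, and FAS2, FAA1, ACC1 and ELO1 held all of them. The genome share for this count was not computed, so shares are given by pairs of libraries. Xrn1-TAP shared 4 positions with No-TAP, which are 8.33% of its own in these windows and 30.8% of those of No-TAP, beside 0.552% and 2.15% over the genome. Dcp2-TAP shared 2, which are 2.74% of its own and 15.4% of those of No-TAP, beside 0.367% and 3.48% over the genome. Lsm1-TAP shared 1, which is 1.85% of its own and 7.69% of those of No-TAP, beside 0.399% and 2.13% over the genome. Between tagged libraries, Xrn1-TAP and Dcp2-TAP shared 4 (8.33% and 5.48% of their own, beside 3.50% and 1.44% over the genome). Xrn1-TAP and Lsm1-TAP shared 5 (10.4% and 9.26%, beside 2.33% and 1.70%). Dcp2-TAP and Lsm1-TAP shared 7 (9.59% and 13.0%, beside 1.84% and 3.26%). Windows with many positions hold more chances for a shared base, and the part of this in the shares was not tested.

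Inside the coding regions, which make up 21072 bp in all, the positions of these genes were near or below the density of all coding genes. They held 13 positions with 123 tags in Xrn1-TAP, 45 with 563 in Dcp2-TAP, 28 with 417 in Lsm1-TAP and 7 with 49 in No-TAP. Per length these are 0.565 (0.301 to 0.966) times the density over all coding genes for Xrn1-TAP, 0.828 (0.604 to 1.11) for Dcp2-TAP, 0.837 (0.556 to 1.21) for Lsm1-TAP and 1.19 (0.478 to 2.45) for No-TAP. By tags the density was higher, 1.34 times that over all coding genes for Dcp2-TAP and 1.55 times for Lsm1-TAP. At least 2 times the density in positions was reached by 0 of 7 genes for Xrn1-TAP (background 14.1%), 0 for Dcp2-TAP (background 12.2%), 0 for Lsm1-TAP (background 12.1%) and 2 for No-TAP (background 17.2%). The 2 were ELO1 with 1 position and FAA4 with 3.

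FAS2, with a coding region of 5664 bp, held 4 positions inside for Xrn1-TAP, 13 for Dcp2-TAP, 5 for Lsm1-TAP and 1 in No-TAP. Its density upstream was 26.6 (8.46 to 110) times that inside for Xrn1-TAP, 15.2 (7.64 to 32.1) for Dcp2-TAP, 31.2 (11.5 to 105) for Lsm1-TAP and 42.5 (5.15 to 1954) for No-TAP. ACC1, with 6702 bp the longest of the 7, held 3 positions for Xrn1-TAP, 16 for Dcp2-TAP, 10 for Lsm1-TAP and 1 in No-TAP. Its upstream density was 16.8 (3.58 to 104) times that inside for Xrn1-TAP, 6.28 (2.71 to 14.2) for Dcp2-TAP and 6.70 (2.30 to 18.9) for Lsm1-TAP. OLE1 held 0 positions inside for Xrn1-TAP, 0 for Dcp2-TAP, 3 with 70 tags for Lsm1-TAP and 0 in No-TAP, so the library with the fewest upstream positions among the tagged ones was the only one with positions inside. FAA4 held 2 positions inside for Xrn1-TAP, 8 for Dcp2-TAP, 5 for Lsm1-TAP and 3 in No-TAP. Summed over the 7 genes, upstream over inside was 13.9 (7.41 to 28.0) for Xrn1-TAP, 6.10 (4.15 to 9.06) for Dcp2-TAP, 7.26 (4.52 to 11.9) for Lsm1-TAP and 6.99 (2.59 to 20.7) for No-TAP. Over all coding genes it was 2.00 for Xrn1-TAP, 2.13 for Dcp2-TAP, 1.74 for Lsm1-TAP and 2.00 in No-TAP, but the upstream part of this ratio chose the genes.

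**Figure D5:**
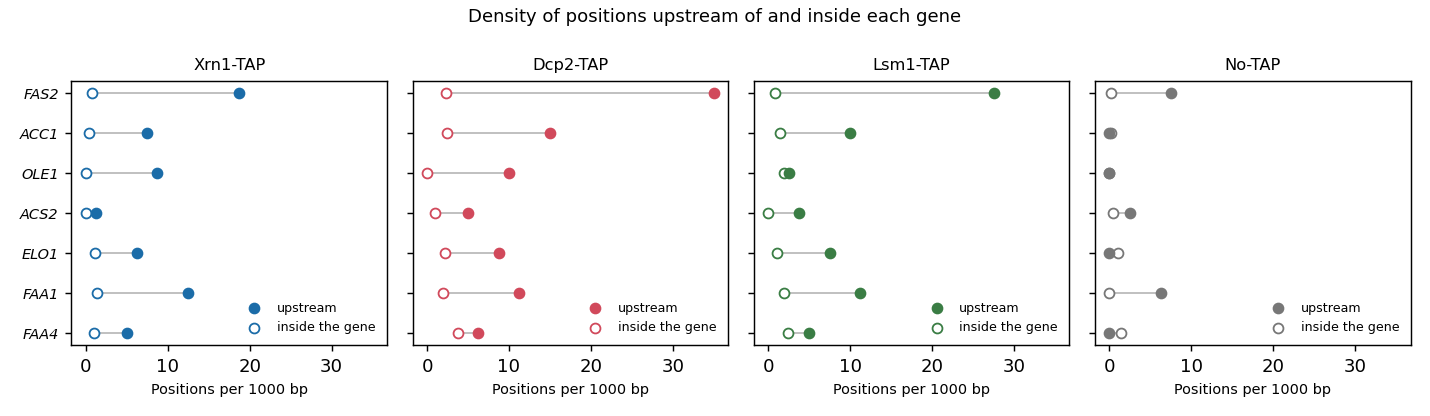
Density of distinct positions in positions per 1000 bp (x axis) upstream of each gene (filled) and inside its coding region (open), with genes down the page and 1 panel per library, No-TAP at the right. FAS2 has the widest gap in every panel, reaching 35 upstream beside 2.30 inside in Dcp2-TAP, and OLE1 in Lsm1-TAP has 2.5 upstream beside 1.96 inside.

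The tagged strains were then set against the untagged one, each count as a share of its library. By positions the 7 genes together stood at 0.948 (0.505 to 1.91) times No-TAP for Xrn1-TAP, 0.592 (0.326 to 1.17) for Dcp2-TAP and 0.777 (0.419 to 1.55) for Lsm1-TAP, and each interval holds 1. By tags the values were 1.08 (0.879 to 1.34) for Xrn1-TAP, 0.893 (0.732 to 1.10) for Dcp2-TAP and 0.918 (0.748 to 1.14) for Lsm1-TAP. Shares divide out the library totals, so they cannot show an excess common to the whole genome. Another scaling used the median ratio over the 1226 coding genes with tags in all 4 libraries. It raises the log2 ratios of positions by 0.92 for Xrn1-TAP, 1.00 for Dcp2-TAP and 1.13 for Lsm1-TAP, and those of tags by 0.66 for Xrn1-TAP, 0.69 for Dcp2-TAP and 0.94 for Lsm1-TAP. With it the position ratios were 1.79 (0.953 to 3.60) for Xrn1-TAP, 1.19 (0.653 to 2.34) for Dcp2-TAP and 1.70 (0.916 to 3.40) for Lsm1-TAP. The tag ratios were then 1.72 (1.39 to 2.13) for Xrn1-TAP, 1.44 (1.18 to 1.77) for Dcp2-TAP and 1.76 (1.43 to 2.18) for Lsm1-TAP, all above 1, so the direction depends on the scaling. The 1226 genes each had at least 1 No-TAP position, while 68.5% of coding genes had none and the mean gene had 0.447. Keeping only such genes favours high No-TAP counts and can itself raise these ratios, and its part was not tested.

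Gene by gene, 0 of the 7 position ratios lay above No-TAP beyond counting error in any tagged library (background 0.0176% in each). That background is 1 of 5684 coding genes, a call for which the No-TAP depth leaves little room. Below No-TAP lay 0 of 7 for Xrn1-TAP (background 0.246%), 1 for Dcp2-TAP (background 0.51%) and 0 for Lsm1-TAP (background 1.02%), the 1 being FAA1. ACC1, OLE1, ELO1 and FAA4, with 0 No-TAP positions, could not lie below. FAS2 stood at 0.642 (0.235 to 2.02) by positions for Xrn1-TAP, 0.492 (0.200 to 1.45) for Dcp2-TAP and 0.686 (0.270 to 2.07) for Lsm1-TAP. By tags it stood at 1.18 (0.784 to 1.83) for Xrn1-TAP, 1.68 (1.15 to 2.56) for Dcp2-TAP and 1.85 (1.25 to 2.82) for Lsm1-TAP, so with these shares the units put FAS2 on opposite sides of 1. With the median-ratio scaling its position ratios were 1.21 (0.444 to 3.81) for Xrn1-TAP, 0.987 (0.401 to 2.91) for Dcp2-TAP and 1.50 (0.590 to 4.53) for Lsm1-TAP. Its tag ratios were then 1.87 (1.24 to 2.90) for Xrn1-TAP, 2.72 (1.86 to 4.13) for Dcp2-TAP and 3.54 (2.41 to 5.42) for Lsm1-TAP, each interval above 1. The FAS2 position intervals hold 1 with either scaling, and its No-TAP value is 28 tags at 6 positions. FAA1 stood at 0.513 (0.160 to 1.91) by positions for Xrn1-TAP, 0.190 (0.0572 to 0.721) for Dcp2-TAP and 0.337 (0.101 to 1.28) for Lsm1-TAP. By tags it stood at 0.557 (0.417 to 0.751) for Xrn1-TAP, 0.184 (0.136 to 0.251) for Dcp2-TAP and 0.249 (0.181 to 0.345) for Lsm1-TAP. The FAA1 position ratio for Dcp2-TAP had an interval that holds 1 with the median-ratio scaling, at 0.381 (0.115 to 1.45), with a window of 500 bp, at 0.246 (0.0562 to 1.48), and with positions thinned to the number of No-TAP, at 0.4 (0.0381 to 2.44). With the median-ratio scaling the FAA1 tag ratio for Xrn1-TAP was 0.883 (0.662 to 1.19). ACS2 stood at 0.0906 (0.0285 to 0.251) by tags for Xrn1-TAP, 0.0867 (0.0375 to 0.199) for Dcp2-TAP and 0.147 (0.0636 to 0.337) for Lsm1-TAP. These tag ratios stayed below 1 with the other scaling. They rest on 14 No-TAP tags at 2 positions, 11 of them at 1 base. At 419 CPM this lies under the 633 CPM that 3 positions stand for in No-TAP, so no difference is read from them. The position ratios of ACS2, from 1 to 4 positions in the tagged libraries and 2 in No-TAP, were 0.128 (0.00218 to 2.46) for Xrn1-TAP, 0.211 (0.0302 to 2.33) for Dcp2-TAP and 0.281 (0.0322 to 3.36) for Lsm1-TAP, and each interval holds 1.

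ACC1, OLE1, ELO1 and FAA4 had 0 positions in No-TAP, where a count of 0 allows up to 3 positions, or 6.33 per 10000. The tagged shares of these 4 genes, at most 3.79 per 10000 (OLE1 in Xrn1-TAP), lie under that limit, so by positions a difference was not detectable at this depth. By tags, ACC1 had 487 CPM (tags scaled to the library total) for Xrn1-TAP, 403 for Dcp2-TAP and 308 for Lsm1-TAP. OLE1 had 626 CPM for Xrn1-TAP, 327 for Dcp2-TAP and 18.9 for Lsm1-TAP. ELO1 reached at most 398 CPM, in Lsm1-TAP, and FAA4 at most 215 CPM, in Dcp2-TAP. At the mean of 7.04 tags per position in No-TAP, 3 positions stand for 633 CPM, and none of these values exceeds it. No fold over No-TAP is therefore given for these 4 genes. The 3 comparisons share the No-TAP library.

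Between tagged libraries, 21 ratios were computed for the 7 genes in each unit. By positions every one of the 21 intervals held 1. By tags, intervals lay above 1 for 2 genes and below for 2 in Xrn1-TAP over Dcp2-TAP. In Xrn1-TAP over Lsm1-TAP it was 3 above and 2 below, and in Dcp2-TAP over Lsm1-TAP 1 above and 2 below. No share over all coding genes is given for these tag counts. OLE1 had 4.80 (0.914 to 47.3) times the Lsm1-TAP share of positions in Xrn1-TAP and 2.25 (0.450 to 21.8) times in Dcp2-TAP. By tags, which can include PCR copies, these OLE1 ratios were 33.1 (12.5 to 124) in Xrn1-TAP and 17.3 (6.57 to 64.5) in Dcp2-TAP. They rest on 4 tags at 2 positions in Lsm1-TAP. FAA1 had 2.70 (0.987 to 7.52) times the Dcp2-TAP share of positions in Xrn1-TAP, and 3.03 (2.40 to 3.83) times by tags. ELO1 had 0.658 (0.189 to 2.37) times the Lsm1-TAP share of positions in Dcp2-TAP, and 0.323 (0.221 to 0.469) times by tags. For the 7 genes together, Xrn1-TAP had 1.60 (1.09 to 2.33) times the share of Dcp2-TAP by positions and 1.21 (1.09 to 1.35) times by tags.

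A wider list of fatty acid genes had medians at or within 1 position of those over all coding genes. It held enzymes and regulators of elongation, uptake, mitochondrial synthesis, oxidation and the Ino2-Ino4 circuit, of which 26 of 30 lay on the chromosomes used. Their median was 2 upstream positions for Xrn1-TAP, 3 for Dcp2-TAP, 2 for Lsm1-TAP and 0 in No-TAP. At 2 times the mean or more were 3 of the 26 (11.5%) for Xrn1-TAP (background 13.3%), 0 for Dcp2-TAP (background 11.5%), 1 (3.85%) for Lsm1-TAP (background 11.6%) and 8 (30.8%) for No-TAP (background 31.5%), all below the share over all coding genes. The genes named next are the highest in shares of positions summed over all 4 libraries, No-TAP included. MCT1, the malonyl transferase of mitochondrial fatty acid synthesis, came first, with 4 positions for Xrn1-TAP, 7 for Dcp2-TAP, 2 for Lsm1-TAP and 2 in No-TAP. TSC13, the enoyl reductase of very-long-chain elongation, had 5 for Xrn1-TAP, 5 for Dcp2-TAP, 1 for Lsm1-TAP and 2 in No-TAP. ELO3, an elongase of very long chains, had 1 for Xrn1-TAP, 7 for Dcp2-TAP, 5 for Lsm1-TAP and 2 in No-TAP. This order leans on the shallow No-TAP library, where 2 positions are 4.22 per 10000. The sum was 8.73 per 10000 for MCT1 and 5.17 for ACS1, which had 0 positions in No-TAP.

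Beside them, the 23 sterol synthesis genes had medians of 1 for Xrn1-TAP, 5 for Dcp2-TAP, 2 for Lsm1-TAP and 0 in No-TAP. The 15 phospholipid head group genes had medians of 4 for Xrn1-TAP, 7 for Dcp2-TAP, 4 for Lsm1-TAP and 1 in No-TAP, closer to the medians of the 7 fatty acid genes. Over the 4 libraries, the coding genes most like FAS2 in upstream positions were RKM3, YLR162W and YAL037W, at Euclidean distances of 0.47, 0.52 and 0.60 in log2 positions per 10000 with a pseudocount of 1. Their windows hold CDS1 (RKM3), CDC19 (YAL037W) and a 5S rRNA gene copy (YLR162W, uncertain). RKM3, a ribosomal lysine methyltransferase, had 13 positions for Xrn1-TAP, 25 for Dcp2-TAP, 16 for Lsm1-TAP and 6 in No-TAP.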

How the data were processed

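The deposited files hold raw tag counts per position on the forward strand, the reverse strand and their sum, per the file headers, with no normalization. Per the labels' protocols, formaldehyde at 1% fixed the cells, sonication sheared the chromatin to fragments with a median of 250 to 300 bp, IgG beads pulled it down, and lambda and RecJf exonucleases trimmed the DNA. The aligner, build, filters and duplicate handling were not given in the sources used here. Although 2 replicates are named by the design text, each strain has 1 file, treated as 1 library. Genes came from the RefSeq table of R64, with strand read from the locus tag. Positions and tags were counted upstream over 800 bp and in the coding region. Called means at least 2 times the mean coding gene. Ratios have exact conditional binomial intervals, counts exact Poisson and shares Clopper-Pearson intervals, and the procedures were tested on simulated data. The 7 genes, gene lists and windows were chosen with earlier results of these data known. Named genes are these 7, the 3 highest of the pathway list and the 3 genes nearest to FAS2. Promoter motifs were not analysed here. Python 3.11.15, numpy 2.4.6, pandas 2.3.3, scipy 1.17.1 and matplotlib 3.10.9 were used.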

Additional observations from a re-analysis of the deposited data

How the results depend on the processing

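Over 31 results, 253 values were recomputed under alternative settings, of which 20 moved outside the interval of the reported value, or by over 1.5 times for a count of genes, and 0 changed the side of 1 after excluding it. Only results whose reported interval excluded 1 could enter that last count. Among the others some values crossed 1, such as the density inside the coding regions in Dcp2-TAP, 0.828 by positions and 1.34 by tags. The number of genes at 2 times the mean or more was 2 in Xrn1-TAP, 1 in Dcp2-TAP and 2 in Lsm1-TAP with a window of 300 bp and 3 in Xrn1-TAP with 500 bp. In Dcp2-TAP it was 5 by tags and 6 with positions thinned, in 1 random draw, to the number of No-TAP. At that depth 1 position can suffice, as in No-TAP itself with its background of 31.5%. The shares of all coding genes were not computed for these settings, so the counts are not read as results about the genes. By tags, the 7 genes over the mean gene stood at 4.02 in Dcp2-TAP and 4.56 in Lsm1-TAP, their coding regions at 1.34 in Dcp2-TAP and 1.55 in Lsm1-TAP, and FAS2 in Dcp2-TAP at 1.68 times No-TAP. Thinned, the values were 2.39 upstream in Lsm1-TAP, 1.22 inside in Dcp2-TAP, 4.39 for upstream over inside in Lsm1-TAP and 0.167 for FAS2 in Dcp2-TAP over No-TAP. With the median ratio over genes, the 7 genes over No-TAP stood at 1.19 in Dcp2-TAP and 1.70 in Lsm1-TAP. Without FAS2, a choice made after seeing the data, the upstream fold was 1.71 in Dcp2-TAP and 2.41 in Lsm1-TAP, and upstream over inside 4.47 in Lsm1-TAP. The cause was not tested. Leaving out the FAS2 base shared by all 4 libraries, or moving start codons by 30 bp, moved no value outside its interval. Genes with 0 No-TAP positions gave no ratio and hence no alternative. No paired analysis was possible because each strain has 1 library. The No-TAP depth limits every ratio.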

Other observations

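Past the stop codons, a region that the choice of genes did not use, the 300 bp downstream of the 7 genes held 5 positions for Xrn1-TAP, 12 for Dcp2-TAP, 7 for Lsm1-TAP and 1 in No-TAP. Per gene the 7 had 0.714 for Xrn1-TAP, 1.71 for Dcp2-TAP, 1.00 for Lsm1-TAP and 0.143 in No-TAP. The mean coding gene had nearly the same, 0.672 for Xrn1-TAP, 1.78 for Dcp2-TAP, 0.903 for Lsm1-TAP and 0.182 in No-TAP. FAA4 had 2 of these positions for Xrn1-TAP, 3 for Dcp2-TAP, 2 for Lsm1-TAP and 1 in No-TAP.

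Among the regulators on the fatty acid list, INO2, one of the activators of the inositol response, had 1 upstream position for Xrn1-TAP, 8 for Dcp2-TAP, 4 for Lsm1-TAP and 1 in No-TAP. Its partner INO4 had 3 for Xrn1-TAP, 3 for Dcp2-TAP, 3 for Lsm1-TAP and 0 in No-TAP. OPI1, their repressor, had 1 for Xrn1-TAP, 5 for Dcp2-TAP, 4 for Lsm1-TAP and 0 in No-TAP. ACS1, the acetyl-CoA synthetase of growth without glucose, had 5 for Xrn1-TAP, 4 for Dcp2-TAP, 4 for Lsm1-TAP and 0 in No-TAP, beside the lower counts of ACS2 for Xrn1-TAP and Lsm1-TAP. INO2, INO4, OPI1 and ACS1 were picked for mention with their values known.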
